A study of Danio rerio with 3 samples.

Results

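The genes described here are 33 genes of G2 phase and mitosis, measured in single cells of the adult zebrafish telencephalon after blockade of Notch signaling. They were taken from a list of 34 genes named for their known role in mitosis, by exact symbol. The gene table held 33 of these among its 29077 gene identifiers, and *incenp* was not analysed here. The 3 replicates came from 12-week-old Tg(*sox2*:gfp) fish, in which GFP is driven by *sox2* and marks radial glia and intermediate progenitors. All fish were bathed in LY-411575 (LY), a γ-secretase inhibitor that blocks Notch receptor cleavage. The deposited description gives 48 hours of treatment and the methods of the study a shorter one. Telencephalic cells of pooled fish were sorted, and GFP-positive cells were mixed with GFP-negative cells, so shares of cell types are set in part by the sort. Every sample was LY-treated, so no effect of LY was measured.

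A cell that enters mitosis activates Cdk1 bound to a B-type cyclin. It then condenses its chromosomes, builds a bipolar spindle, attaches each kinetochore to it, and holds anaphase back through the spindle checkpoint until the anaphase-promoting complex (APC/C) is switched on. Most of the transcripts involved accumulate in G2 and disappear after division, so in brain tissue they mark dividing progenitors. Adult radial glia, the neural stem cells of the zebrafish pallium, are mostly quiescent. The roles given below are those known from yeast, fly, and mammalian cells.

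The replicates held 8143, 6205, and 5349 barcodes with 15050320, 13048298, and 12104324 UMIs. Cell barcodes shared between any 2 libraries numbered 176. After filtering, 18816 cells remained, 975 of them were removed for high doublet scores, and 17841 were kept. Cells were placed in classes by genes that are not among the 33. A G2/M cell had at least 3 UMIs over at least 2 of 20 other G2/M genes, such as *ccna2* and *kif4*. An S-phase cell was not a G2/M cell and had at least 6 UMIs and 0.4% of its UMIs from 24 replication genes, such as *pcna* and *mcm2*. A low cell had no UMI of the 20 genes and under 0.2% from the 24, and the rest were intermediate. Lineages were set by marker UMIs. Glial cells needed 2 of 6 glial genes such as *slc1a2b* and *cx43* and 0.15% of UMIs. Cells without glial markers had under 0.05% and were not past the oligodendrocyte precursor, oligodendrocyte, or macrophage gate. Neurons were not excluded from them. Glial cells in the low class are called quiescent radial glia. The neuroblast, oligodendrocyte precursor (OPC), oligodendrocyte, and macrophage gates worked in the same way as the glial gate. The neuroblast gate also needed a UMI of *insm1a*, *insm1b*, *neurod4*, or *nhlh2*. Where levels are given or tested, neuroblasts and OPCs are those of the low class unless called cycling. Oligodendrocytes and macrophages are those of any cycle class unless stated. The gates gave 617 G2/M cells, 1327 S-phase cells, and 1968 quiescent radial glia. They were deeper in the first of these, with medians of 3531, 2357, and 1698.5 UMIs per cell. The share removed as doublets was 10.3% of G2/M cells against 5.18% of all cells.

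The 33 genes together made up 1.04%, 0.760%, and 0.782% of the UMIs of G2/M cells in replicates 1, 2, and 3, a mean of 0.861% ± 0.156 (SD, n = 3). In S-phase cells they made up 0.0426% ± 0.00453. In quiescent radial glia their share was 0.00785%, 0.00882%, and 0.0114% in replicates 1, 2, and 3 (0.00935% ± 0.00183). In neuroblasts of the low class, from which cells in S and G2/M were removed by the gate, it was 0.00831% ± 0.00163. Macrophages, an immune lineage used here as a background, had 0.00482%, 0.0134%, and 0.00379%. Replicate 2 held all 5 S-phase cells and the 1 G2/M cell among the 250 macrophages, and the 228 macrophages of the low class had 0.00505%, 0.0102%, and 0.00268%. Quiescent radial glia were above macrophages of the low class in replicates 1 and 3 and below them in replicate 2, so the ranges overlapped only through replicate 2. Every replicate of S-phase cells was above every replicate of these 3 classes and below every replicate of G2/M cells. Intermediate radial glia (0.0188% ± 0.00602), oligodendrocytes (0.0171% ± 0.00253), and OPCs outside the cycle (0.0169% ± 0.00263) had means between these levels and overlapped with each other. S-phase cells with glial markers (0.0400% ± 0.00688) and without (0.0408% ± 0.00118) overlapped.

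**Figure D1:**
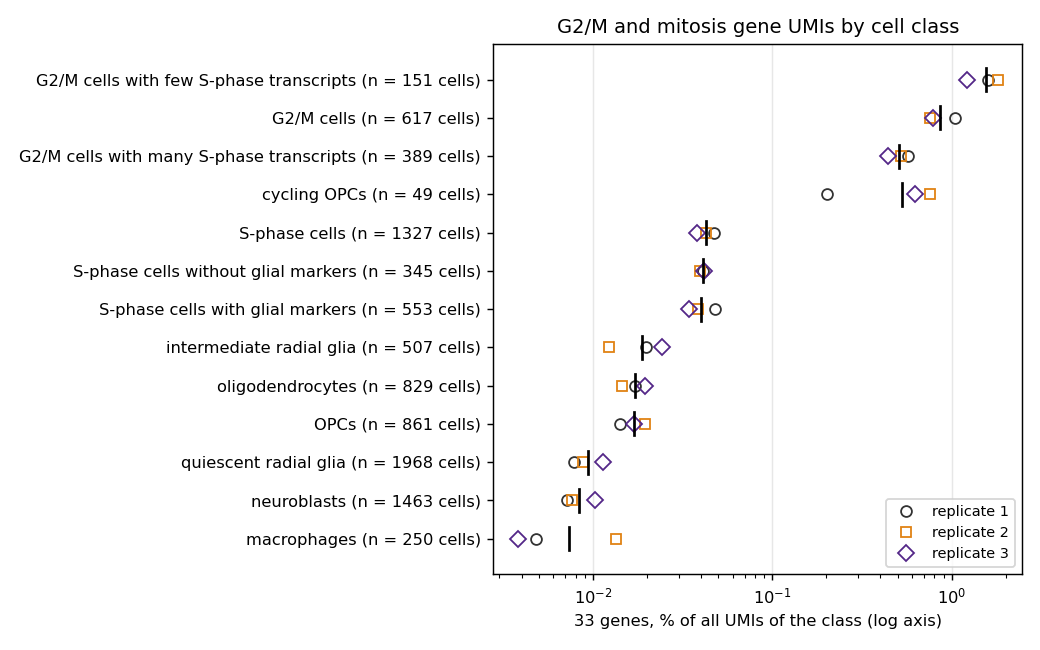
UMIs of the 33 genes as a percentage of all UMIs of each cell class, on a log axis, with 1 symbol per replicate and a bar at the mean of 3 replicates. G2/M cells with few S-phase transcripts lie at the top with a mean of 1.54%, and quiescent radial glia, neuroblasts, and macrophages lie under 0.02%.

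The same order was seen in shares of cells. With each cell thinned at random to 1000 UMIs, 92.7% ± 2.32 of G2/M cells (SD, n = 3) had a UMI of at least 1 of the 33 genes, and the median G2/M cell had UMIs of 4 of them. The share was 29.1% ± 0.666 in S-phase cells and 8.68% ± 2.49 in quiescent radial glia. Free RNA in the droplets gives UMIs to cells that do not express a gene, and macrophages, with a median of 1411.5 UMIs before thinning, had 7.61% ± 3.67. In macrophages of the low class it was 5.41%, 10.6%, and 3.23% in replicates 1, 2, and 3, against 6.16%, 8.74%, and 11.1% in quiescent radial glia, which were higher in replicates 1 and 3 and lower in replicate 2. Cells under 1000 UMIs were left out, namely 14 G2/M cells, 33 S-phase cells, 211 quiescent radial glia, and 84 macrophages. Without thinning, the shares were 98.1%, 48.6%, 15.5%, and 9.27%.

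Of 25802 UMIs of the 33 genes in all kept cells, 21015 lay in the 617 G2/M cells. For the median gene, G2/M cells held 81.9% of its UMIs, and for 20 of the 33 genes more than 80%. The share was 92.0% ± 2.52 for *cenpf*, a large kinetochore-associated protein, 91.8% ± 0.755 for *kif11*, the motor that pushes spindle poles apart, and 91.3% ± 1.45 for *nusap1*, which bundles spindle microtubules. In 3 genes the share was under 60%. It was 22.3% ± 9.58 for *ect2*, the exchange factor that activates RhoA for cytokinesis, 40.1% ± 4.09 for *smc4*, a condensin core subunit, and 57.6% ± 12.3 for the kinetochore gene *nuf2*. Low cells held 58.2% ± 11.4 of *ect2* UMIs and 36.3% ± 4.96 of *smc4* UMIs. Outside the G2/M gate, 124 of 17224 cells had 5 or more UMIs of the 33 genes. Of these, 82 were S-phase cells, and they held 35.9% of all UMIs of the 33 genes in S-phase cells. By contrast, 682 of the 1327 S-phase cells had none.

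**Figure D2:**
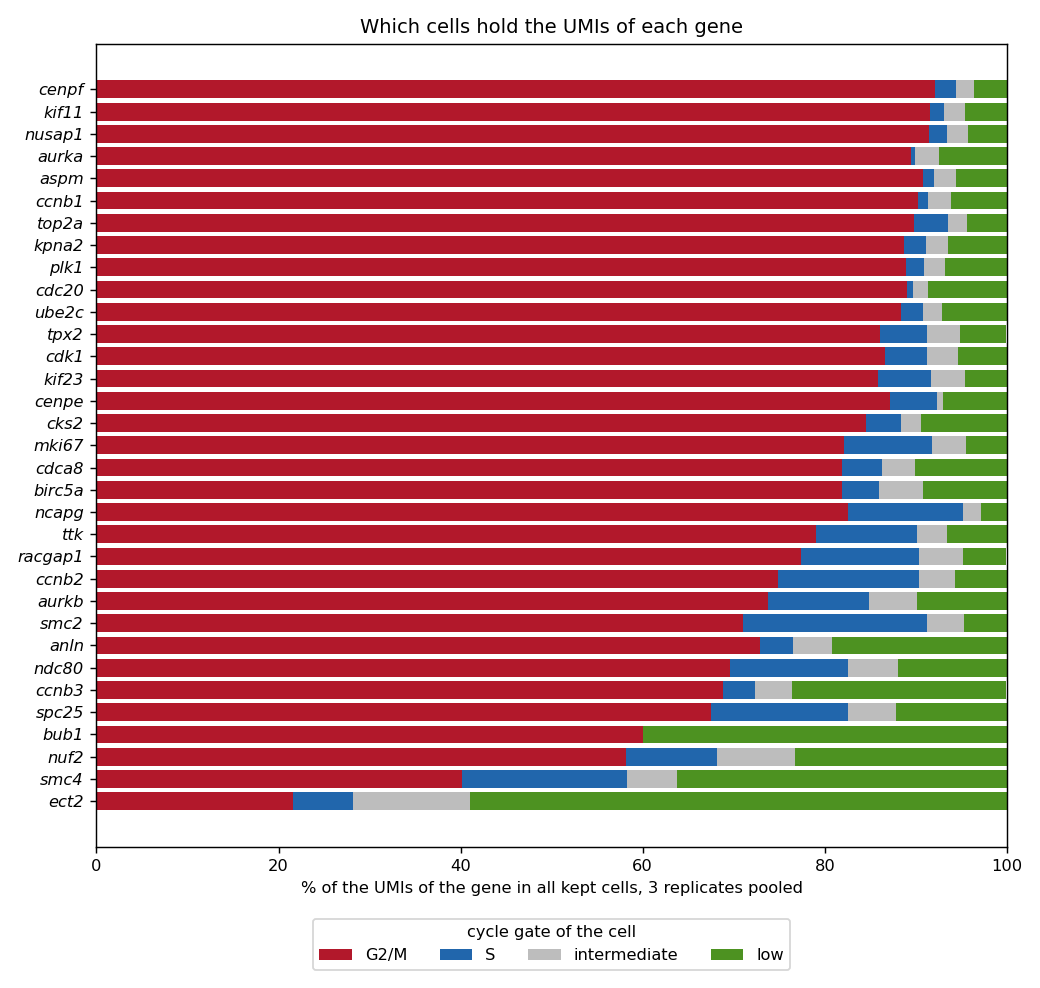
Percentage of the UMIs of each gene held by cells of each cycle gate, with the 3 replicates pooled. Red bars (G2/M) fill most of the width for all genes except *ect2* and *smc4*, for which green bars (low) take a large share.

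Levels are given below as CPM, the UMIs of a gene per 1000000 UMIs of the class, in replicates 1, 2, and 3. UMIs were summed per replicate and class and tested with edgeR's quasi-likelihood test, adjusted over all genes tested, with the replicate as a block. Fold changes are log2 values ± SE. The 3 sums of a class come from 3 libraries of pooled fish, and the block pairs the sums of a library. The p-values thus set the difference between classes against its variation over these 3 libraries. edgeR moderated that variation with the other genes tested, so the p-value of a gene does not rest on its own 3 differences alone. Of the 33 genes, 32 had enough counts to be tested between G2/M and S-phase cells, and *bub1*, a checkpoint kinase with 5 UMIs in all cells, had not. All 32 were higher in G2/M cells at an adjusted p under 0.05, where 10.8% of all 8618 genes tested were higher. The G2/M cells were gated on other genes of the same phase. Several of the 32, such as *aurka*, passed the filter on low counts mainly through these cells. Nothing is therefore read from 32 of 32 against this share. Without the filter 32 of 33 were higher, beside 915 of 20006 over all genes. The median log2 fold change of the 32 was 4.74, beside 0.015 over all genes.

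Among the 7 genes of mitotic entry, the median log2 fold change was 4.99. *cdk1*, the kinase that drives entry into mitosis, was at 672, 756, and 703 CPM in G2/M cells and at 26.0, 31.7, and 23.5 in S-phase cells (4.75 ± 0.12, edgeR adjusted p = 1.3e-16). Its cyclin partners differed from each other. *ccnb1* was at 234, 158, and 198 CPM in G2/M cells but had only 6 UMIs in all S-phase cells (6.78 ± 0.28). *ccnb2* was at 64.7, 56.6, and 42.2 CPM in G2/M cells against 7.28, 9.28, and 6.06 in S-phase cells (2.84 ± 0.25), the smallest difference of the group. *ccnb3* lay between them at 4.85 ± 0.21. *plk1*, a kinase of centrosome maturation and mitotic exit, was at 273, 184, and 237 CPM in G2/M cells and at 6.24, 3.09, and 2.27 in S-phase cells (5.96 ± 0.22). *aurka*, the centrosomal Aurora kinase, was at 81.4, 83.1, and 77.8 CPM in G2/M cells. It had 1 UMI in all S-phase cells and none in quiescent radial glia, where 3 UMIs would be 0.779 CPM, so no fold is given. *cks2*, a small Cdk-binding subunit, differed by 4.99 ± 0.21.

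Among genes of the checkpoint and APC/C, *ube2c*, the conjugating enzyme of the APC/C, was at 616, 540, and 671 CPM in G2/M cells. Its level was 10.4, 6.96, and 17.4 in S-phase cells, a difference of 5.72 ± 0.16. *cdc20*, which activates the APC/C at anaphase, was at 238, 177, and 229 CPM in G2/M cells and had 4 UMIs in all S-phase cells (7.45 ± 0.29). *ttk*, the checkpoint kinase Mps1, was lower in level and differed by 3.36 ± 0.22, with 106, 69.3, and 85.3 CPM in G2/M cells and 9.35, 8.51, and 7.57 in S-phase cells.

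The 5 spindle genes had a median log2 fold change of 6.12. *nusap1* was at 868, 657, and 752 CPM in G2/M cells and at 8.32, 12.4, and 11.4 in S-phase cells (6.12 ± 0.15). *aspm*, which acts at spindle poles and is known for its part in brain size, was at 730, 294, and 446 CPM in G2/M cells, highest in replicate 1, and at 9.35, 2.32, and 2.27 in S-phase cells (6.80 ± 0.19). *kpna2*, an importin that binds spindle factors, was at 609, 493, and 506 CPM in G2/M cells and at 12.5, 10.1, and 9.08 in S-phase cells (5.70 ± 0.15). *kif11* (6.44 ± 0.22) and *tpx2*, an activator of Aurora A (4.61 ± 0.19), differed in the same direction.

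Smaller differences were found among kinetochore and chromosome genes. In the kinetochore group, *cenpf* was at 801, 347, and 411 CPM in G2/M cells and at 13.5, 7.73, and 4.54 in S-phase cells (5.94 ± 0.17), and *cenpe*, a kinetochore motor, differed by 4.63 ± 0.38. The Ndc80 complex holds microtubule ends. Its 3 subunits among the 33 genes differed by 2.72 ± 0.17 (*spc25*), 2.98 ± 0.20 (*ndc80*), and 3.10 ± 0.19 (*nuf2*). Its subunit *spc24*, not among the 33, differed by 3.05 ± 0.14. *spc25* was at 33.3, 21.7, and 31.0 CPM in S-phase cells. In the chromosome group, *top2a*, which untangles sister DNA, was at 741, 507, and 487 CPM in G2/M cells and at 23.9, 17.0, and 9.08 in S-phase cells (5.17 ± 0.15). *mki67*, which coats mitotic chromosomes, was at 927, 526, and 474 CPM in G2/M cells and at 67.6, 48.0, and 34.8 in S-phase cells (3.70 ± 0.12). The 3 condensin subunits among the 33 genes differed least in this group, at 3.21 ± 0.17 for *ncapg*, 2.38 ± 0.13 for *smc2*, and 1.76 ± 0.16 for *smc4*. The condensin subunits *ncaph* and *ncapd2*, not among the 33, differed by 2.52 ± 0.20 and 2.54 ± 0.16. *smc2* was at 50.9, 56.5, and 47.7 CPM in S-phase cells.

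In the chromosomal passenger complex, which corrects faulty attachments, *aurkb* was at 288, 313, and 252 CPM in G2/M cells and at 24.9, 34.8, and 28.8 in S-phase cells (3.28 ± 0.14). The complex's *birc5a* (survivin) and *cdca8* (borealin) differed by 4.86 ± 0.20 and 4.74 ± 0.20. In the cytokinesis group, *kif23* and *racgap1*, the 2 parts of centralspindlin, differed by 4.37 ± 0.26 and 3.04 ± 0.23, and *anln*, a scaffold of the contractile ring, by 4.80 ± 0.46. *ect2* was at 60.5, 70.4, and 47.2 CPM in G2/M cells and at 14.6, 10.1, and 13.6 in S-phase cells (2.25 ± 0.24), while quiescent radial glia had 13.6, 8.19, and 9.71.

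Of 43 other tested mitotic genes, a list chosen by role, 38 were higher in G2/M cells and 0 were lower (median 1.72). Over all genes tested 10.8% were higher, and the median was 0.015. The cells were gated on genes of the same phase, so nothing is read from this count. Of the 3 genes of this list with the most UMIs in G2/M cells, *cks1b*, the paralog of *cks2*, differed by 1.88 ± 0.11. The cohesin genes *rad21a* and *smc1al* differed by 1.20 ± 0.09 and 0.56 ± 0.09.

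**Figure D3:**
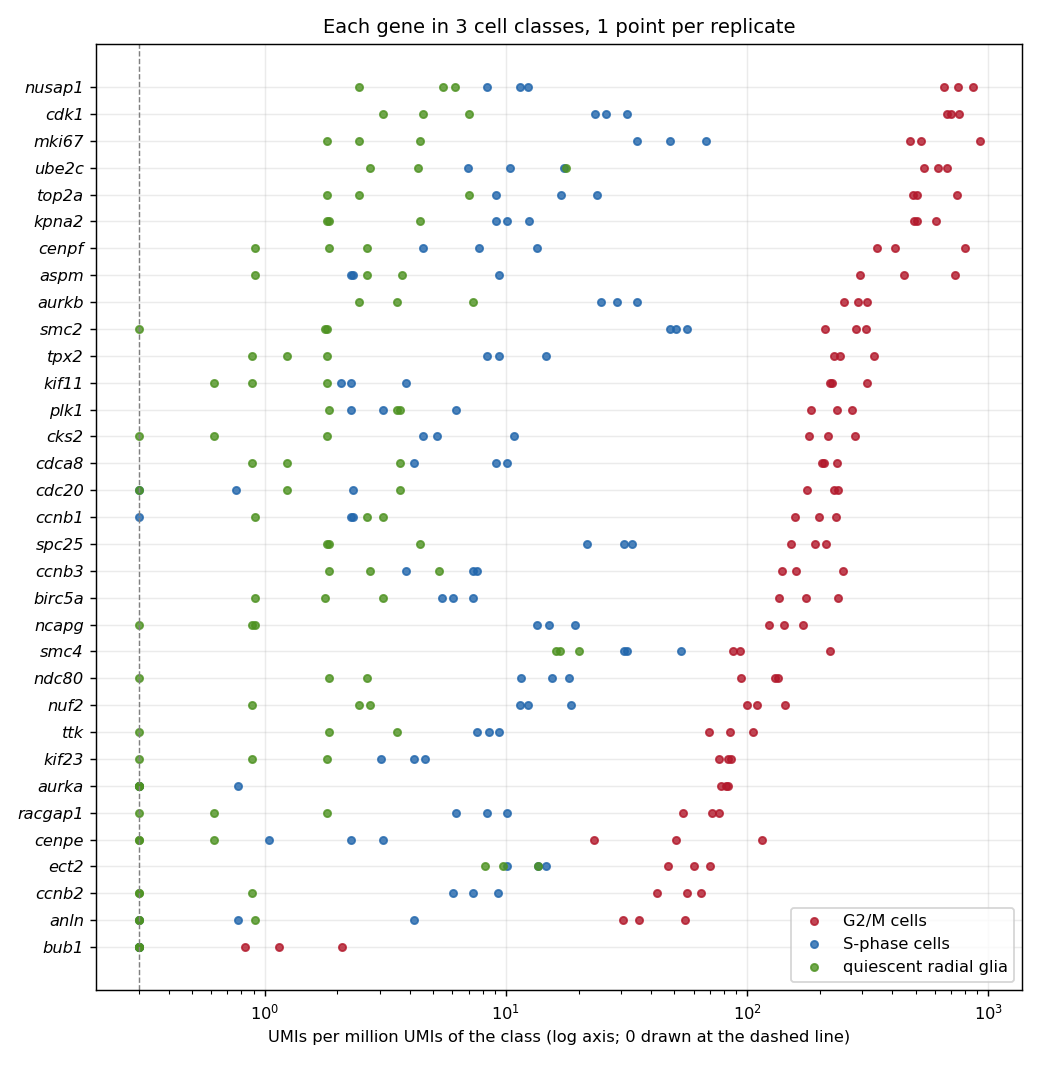
Level of each of the 33 genes in G2/M cells (red), S-phase cells (blue), and quiescent radial glia (green), in CPM on a log axis with 1 point per replicate and genes ordered by their mean in G2/M cells. Red points lie to the right of blue points for every gene, and blue and green points meet for *ect2*, *ube2c*, *ccnb1*, and several others.

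The S-phase level was then compared with that of quiescent radial glia within glial cells. Only 7 of the 33 genes had enough counts, and 6 of them were higher in S-phase glial cells at an edgeR adjusted p under 0.05, where 19.3% of all genes tested were. The genes that passed the filter on low counts passed it mainly through their S-phase level, so nothing is read from 6 of 7 against this share. Without the filter 12 of 31 were higher, beside 1303 of 19657 over all genes. *smc2* was at 52.2, 44.9, and 38.5 CPM in S-phase glial cells and at 0, 1.82, and 1.77 in quiescent radial glia (5.24 ± 0.49). *mki67* (3.65 ± 0.44), *spc25* (3.23 ± 0.49), *cdk1* (2.80 ± 0.40), and *aurkb* (2.44 ± 0.45) followed. *cdk1* was at 43.5, 35.6, and 25.1 CPM in S-phase glial cells against 3.09, 4.55, and 7.06 in quiescent radial glia. *smc4* differed by 1.03 ± 0.28 (edgeR adjusted p = 0.00238). Without replicate 1 its difference was 0.63, with an edgeR adjusted p of 0.167, and under DESeq2 the adjusted p was 0.162. *ube2c* was not called (0.70 ± 0.48, 95% interval −0.24 to 1.65). Of 22 other mitotic genes tested, 16 were higher, beside the same 19.3% of all genes. The filter on low counts limits this count too, so nothing is read from it.

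Lineages were compared within each phase. In S-phase cells with against without glial markers, 4 genes were tested and 0 were called in edgeR or DESeq2, 1 of them having an unadjusted p under 0.05, beside 27.0% of all genes called in either direction in edgeR. *mki67* was at 55.1, 37.4, and 20.1 CPM with glial markers and at 81.5, 57.5, and 47.5 without (−0.76 ± 0.30, 95% interval −1.35 to −0.17, edgeR adjusted p = 0.0538), and it was lower in 3 of 3 replicates. The interval for *smc2* ran from −0.62 to 0.57. When classes were set on 1000 UMIs per cell, 6 of 14 genes tested were lower with glial markers, *mki67* (−1.05) and *smc2* (−0.85) among them. In that setting 737 of all 6096 genes tested were lower.

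In G2/M cells, 115 with glial markers were compared with 262 without. Of 28 genes tested, 2 were lower with glial markers, where 9.29% of all genes tested were lower. The number was near that share, so nothing is read from it. *kif11* was at 171, 193, and 146 CPM with glial markers and at 325, 205, and 278 without (−0.64 ± 0.22, edgeR adjusted p = 0.0224). *mki67* was at 729, 429, and 402 against 987, 551, and 558 (−0.44 ± 0.15, edgeR adjusted p = 0.0202). The median over the 28 genes was −0.30, beside −0.01 over all genes. Of the 28 estimates 24 were negative, beside 1365 of 2681 over all genes. The 28 genes were read in the same cells, so their estimates are not independent. In edgeR 8 of the 28 had an unadjusted p under 0.05, beside 785 of 2681 over all genes. No gene was called under DESeq2, in edgeR without the replicate block, or without replicate 1 or replicate 3. *kif11* also lost its call with doublets kept. With a G2/M gate of 5 UMIs over 3 genes, 0 of 28 were lower, where 146 of all 1887 genes were lower. *kif11* (−0.265) and *mki67* (−0.303) were then not called. With gates on 1000 UMIs per cell, 10 of 30 were lower, where 95 of all 2167 genes were lower. With a stricter glial gate, 17 of 24 were lower, where 105 of all 1364 genes tested were lower. *ube2c*, at 0.08 ± 0.14 in the main comparison, was then lower by an estimate of −0.88, whereas with a G2/M gate of 5 UMIs over 3 genes it was higher at 0.40. The 20 gate genes were also lower with glial markers, at 0.269% ± 0.0267 of UMIs against 0.338% ± 0.0401. The 24 replication genes were at 0.901% ± 0.242 with glial markers and at 0.664% ± 0.156 without. Cells with under 0.2% of UMIs from these 24 were 23.3%, 14.3%, and 11.6% of those with glial markers. Without glial markers they were 36.8%, 15.2%, and 31.1% in replicates 1, 2, and 3. The part of these differences in cycle genes in the lower estimates was not tested. The change from S-phase to G2/M cells was compared between cells with and without glial markers by an interaction term. In this edgeR fit, 0 of 32 genes were called and 3 had an unadjusted p under 0.05, beside 0.443% of all genes called. This interaction was fitted in edgeR alone. Intervals were wide for genes with few UMIs in S-phase cells, such as *cdc20* with −5.79 to 0.62, so differences of several log2 units were not detectable at this depth.

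G2/M cells were next divided by how many S-phase transcripts they still carried. A cell with under 0.2% of its UMIs from the 24 replication genes was said to have few (49, 32, and 70 cells in replicates 1, 2, and 3) and one with 0.4% or more to have many (84, 159, and 146 cells). This comparison was chosen after the values had been seen. The 33 genes made up 1.54% ± 0.306 of the UMIs of cells with few and 0.510% ± 0.0639 of those of cells with many. The 20 gate genes were also higher in cells with few, at 0.479%, 0.622%, and 0.398% of UMIs in replicates 1, 2, and 3 against 0.240%, 0.239%, and 0.196%, and their part in these differences was not tested. Of 32 genes tested, 24 were higher in cells with few, where 10.9% of all genes were higher, and 1 was lower, where 13.0% were lower. The median was 1.53, beside 0.017 over all genes. All these cells had been gated on genes of the same phase, and the split was chosen with the values seen. Nothing is therefore read from 24 of 32 against this share.

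The genes did not move alike. *kpna2* was at 1230, 1830, and 998 CPM in cells with few and at 63.3, 206, and 108 in cells with many (3.40 ± 0.15, edgeR adjusted p = 1.59e-18). *cdc20* was at 491, 692, and 453 against 43.5, 65.9, and 63.2 (3.21 ± 0.19). *aspm* (2.97 ± 0.14), *kif11* (2.82 ± 0.17), *aurka* (2.81 ± 0.24), *ccnb3* (2.57 ± 0.20), and *plk1* (2.55 ± 0.18) followed. All 5 spindle genes and all 3 tested genes of the checkpoint and APC/C were called, and nothing is read from these counts. *cdk1* was at 959, 1560, and 957 CPM against 408, 580, and 464 (1.26 ± 0.11). *top2a* (0.80 ± 0.12) and *mki67* (1.01 ± 0.12) differed less in estimate.

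At the other end of the estimates stood *spc25* and the condensin genes *smc2*, *smc4*, and *ncapg*, of which only *smc2* was called. *smc2* was at 252, 193, and 118 CPM in cells with few and at 372, 312, and 266 in cells with many, lower in 3 of 3 replicates (−0.79 ± 0.18, edgeR adjusted p = 9.67e-04). Its adjusted p was 0.0976 under DESeq2, 0.0738 without the replicate block, and 0.0731 without replicate 3. The intervals of *smc4* (−0.88 to 0.08), *spc25* (−0.54 to 0.22), and *ncapg* (−0.29 to 0.54) held 0. *aurkb* was called neither (0.32 ± 0.16, adjusted p = 0.147 in edgeR), while its partners *birc5a* (2.04 ± 0.19) and *cdca8* (1.69 ± 0.18) were higher in cells with few. The B-type cyclins again differed in estimate, with 2.57 for *ccnb3*, 2.19 for *ccnb1*, and 0.67 ± 0.31 for *ccnb2* (edgeR adjusted p = 0.127). Differences between the genes themselves were not tested. *nuf2* and *racgap1*, at 0.69 ± 0.22 and 0.75 ± 0.26, were each called, but lost the call in 8 of 11 alternatives.

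**Figure D4:**
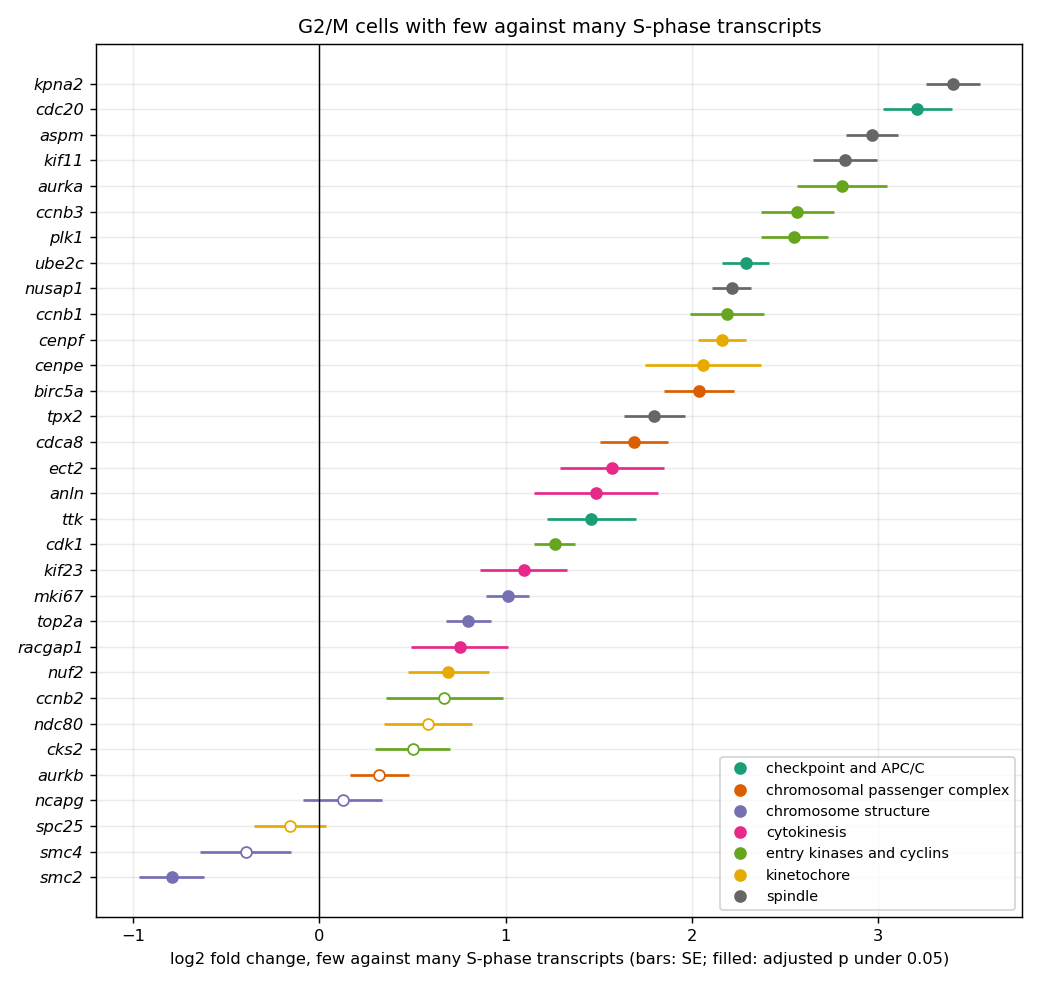
Log2 fold change of 32 genes in G2/M cells with few against many S-phase transcripts, with SE bars, colored by role and filled where the adjusted p was under 0.05. Spindle genes lie at 1.80 or above and condensin genes between −0.79 and 0.12.

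Of 36 other mitotic genes tested in the same cells, 10 were higher in cells with few and 6 lower. Over all genes tested 10.9% were higher and 13.0% lower. The number lower was near that share, and the cells were those gated and split above, so nothing is read from either number. The 10 higher were *g2e3* (3.10), *nek2* (2.34), *ccnf* (2.08), *fzr1a* (1.66), *kif20ba* (1.45), *kif2c* (1.33), *pttg1* (1.28), *kif20bb* (1.26), *lmnb1* (0.54), and *rad21a*. The 6 lower were the kinetochore genes *cenph* (−2.75 ± 0.33), *mis12* (−2.27 ± 0.31), and *cenpk* (−0.76 ± 0.26), and the condensin II genes *ncapg2* (−1.67 ± 0.44), *ncaph2* (−1.65 ± 0.44), and *ncapd3* (−0.92 ± 0.29). The condensin genes *ncapd2* (0.01 ± 0.22) and *ncaph* (0.03 ± 0.26) were not called. *rad21a* was higher by 0.41 ± 0.12, and *smc1al* (0.04 ± 0.14) and *cks1b* (−0.30 ± 0.14) were not called.

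The replicates differed in this composition. Cells with few S-phase transcripts were 31.8% of the G2/M cells of replicate 1 (exact Clopper-Pearson 95% interval 24.6 to 39.8%), 15.1% in replicate 2 (10.6 to 20.6%), and 27.9% in replicate 3 (22.4 to 33.9%). Intervals cover counting error only. Replicate 1 was also the highest of the 3 in G2/M cells for *aspm*, *cenpf*, *mki67*, *top2a*, *smc4*, and *cenpe*, among others. Other genes went differently. *cdk1*, *aurka*, *aurkb*, and *ect2* were highest in replicate 2, and *ube2c* in replicate 3. The part of the composition in these levels was not tested.

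Detection in the same cells was described by correlation. In 568 G2/M cells with at least 2000 UMIs, thinned to that number, the highest Pearson correlations over cells were 0.692 for *ube2c* with *nusap1*, 0.679 for *aspm* with *kpna2*, and 0.669 for *ube2c* with *kpna2*. The median over 528 pairs of genes was 0.141. Those of *smc2* ran from −0.0565 to 0.139. *smc2* had a UMI in 239 of these cells, *aspm* in 191, and *kpna2* in 158. These are descriptions over cells of 3 libraries. Low counts can limit the value of a gene, and their part was not tested.

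The number of cells behind each phase differed between lineages. Of glial cells, 12.1%, 21.5%, and 21.3% were in S phase in the 3 replicates and 2.33%, 4.55%, and 4.62% in G2/M. Of cells without glial markers, from which neurons were not excluded, 3.53%, 4.75%, and 5.0% were in S phase and 1.84%, 3.59%, and 5.05% in G2/M. For neuroblast-marked cells these shares were 7.98%, 8.76%, and 9.84% and 4.48%, 9.56%, and 13.3%. G2/M cells were thus 16.1%, 17.4%, and 17.8% of the cycling glial cells (S and G2/M together), but 34.3%, 43.0%, and 50.2% of those without glial markers. The 2 groups held 115 and 262 of the 617 G2/M cells and 553 and 345 of the 1327 S-phase cells. Cells past more than 1 lineage gate (35 in G2/M and 67 in S phase) entered neither group. Nor did cells with glial UMIs between the 2 gates, or cells of the OPC, oligodendrocyte, and macrophage gates. The part of the cells left out in the difference between the 2 shares was not tested. In each replicate the exact Clopper-Pearson 95% intervals of these 2 shares did not overlap (11.2 to 22.2% against 27.2 to 42.1% in replicate 1). The intervals count cells within a library, so they cover counting error only and not variation between libraries. With 3 pairs an exact sign-flip test cannot go below p = 0.25, so none was run. Glial genes and G2/M genes were read in the same cells, and whether glial transcripts fell under the gate in G2/M cells was not tested. In the neuroblast lineage, part of which has no glial markers, the G2/M share of cycling cells was 36.0%, 52.2%, and 57.4%. In OPCs, 17 G2/M cells and 32 S-phase cells gave 31.6%, 42.9%, and 31.2%, with intervals too wide to set them apart.

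**Figure D5:**
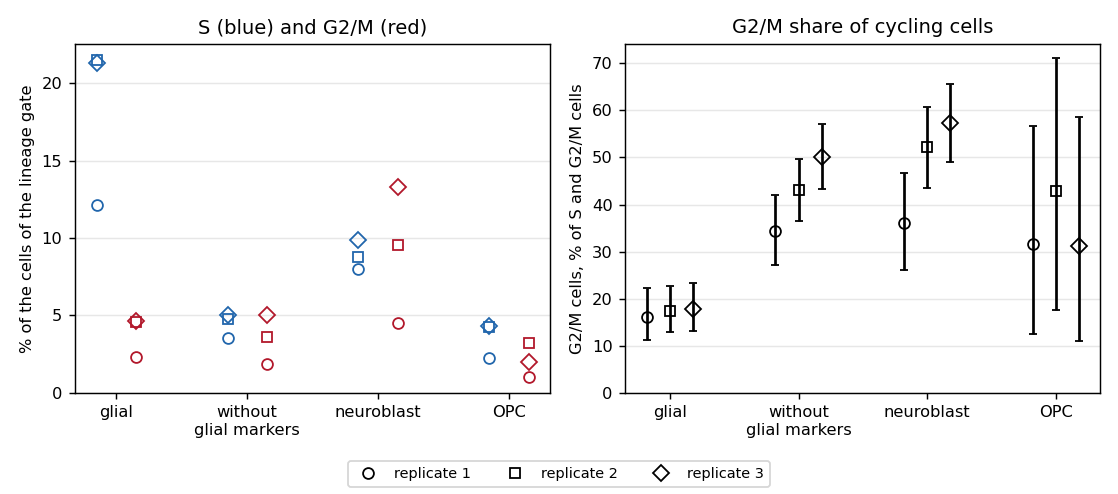
Left, cells in S (blue) and G2/M (red) as a percentage of the cells of each lineage gate, and right, G2/M cells as a percentage of all S and G2/M cells with exact 95% Clopper-Pearson intervals, 1 symbol per replicate. The glial G2/M share lies between 16.1% and 17.8%, and that of cells without glial markers between 34.3% and 50.2%.

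OPCs and oligodendrocytes were each compared with quiescent radial glia. These comparisons were chosen after the values had been seen. Only 2 of the 33 genes had enough counts to be tested for OPCs, and 1 for oligodendrocytes. *ect2* was at 51.6, 98.9, and 52.4 CPM in OPCs that had no UMI of the 20 gate genes, and at 13.6, 8.19, and 9.71 in quiescent radial glia (2.54 ± 0.30, edgeR adjusted p = 8.42e-09), where 24.0% of all genes tested were higher in OPCs. *ect2* passed the filter on low counts mainly through OPCs, so nothing is read from its call against this share. Without the filter 2 of 33 were higher in OPCs, beside 1932 of 19976 over all genes. *ect2* gave 87 of the 222 UMIs of the 33 genes in these OPCs. Its partners in cytokinesis were nearly absent there, with 0 UMIs of *kif23*, 1 of *racgap1*, and 2 of *anln*. *ect2* in OPCs reached the level of G2/M cells (60.5, 70.4, and 47.2 CPM), and the ranges overlapped. In oligodendrocytes it was at 15.9, 4.10, and 10.3 CPM.

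*smc4* was at 52.3, 75.8, and 69.6 CPM in the 829 oligodendrocytes, a class gated on lineage alone, and at 16.1, 20, and 16.8 in quiescent radial glia (1.82 ± 0.24, edgeR adjusted p = 3.93e-06), where 23.0% of all genes tested were higher in oligodendrocytes. In the 751 oligodendrocytes of the low class it was at 55.4, 76.1, and 84.9 CPM (1.95 ± 0.25, edgeR adjusted p = 3.62e-07). It gave 82 of the 165 UMIs of the 33 genes there, beside 1 UMI of *smc2* and 0 of *ncapg*, its condensin partners. In OPCs *smc4* was at 9.76, 12.0, and 9.26 CPM (−0.75 ± 0.43 against quiescent radial glia, edgeR adjusted p = 0.151). Thinned to 1000 UMIs, 6.73% ± 3.37 of oligodendrocytes of the low class had a UMI of *smc4*, against 0 of 166 macrophages and 1.17% ± 0.260 of quiescent radial glia. In cycling OPCs (49 cells) the 33 genes together made up 0.201%, 0.756%, and 0.624% of UMIs.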

How the data were processed

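The 3 replicate libraries of LY-treated Tg(*sox2*:gfp) telencephalon were used. The authors made 10x 3′ libraries, mapped them to GRCz11 with Cell Ranger (3.0.1 per the file headers), and deposited whole UMI counts per gene and barcode, with no normalization. Kept barcodes had 200 or more genes, no more than 10% mitochondrial counts, and a loess residual (genes on UMIs, span 0.5) within 3 SD. Scrublet (scanpy 1.11.5) marked under 0.5% of cells by its automatic threshold, so the top-scoring 0.8% per 1000 cells were removed. UMIs were summed per replicate and class (at least 10 cells) and tested in edgeR 4.0.16 (TMM, filterByExpr, quasi-likelihood, replicate block, Benjamini-Hochberg, 0.05). SE is the log2 fold change over the square root of F. Sums of the same replicate share a library, which pairs them. Their deviations from the class means, over genes, correlated by 0.425, 0.418, and 0.211 in replicates 1 to 3 for G2/M against S-phase cells. The script was tested on simulated data.

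All 33 genes present are named, with full values for those with the most UMIs in each role. The gene lists, gates, and members were chosen with earlier results of these data known. Alternatives were DESeq2 1.42.0, no filter, no block, other gates, doublets kept, gating on thinned counts, and each replicate left out.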

Additional observations from a re-analysis of the deposited data

Results flagged for a closer look

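*ube2c* stands in the gene table under 2 identifiers. The values above are from the one with 1779 UMIs in kept cells, and the further identifier, which entered no comparison, held 4 UMIs.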

How the results depend on the processing

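All 32 genes tested between G2/M and S-phase cells were called in every alternative. Over all comparisons, 1156 gene estimates were made under alternatives, of which 1086 kept their direction or stayed uncalled, 37 lost and 32 gained a call, and 1 reversed with a call, *ube2c* in glial against other G2/M cells (−0.88 with the stricter glial gate). The causes were not tested. Calls among the 33 genes in S-phase glial cells against quiescent radial glia went from 6 to 12 with the G2/M gate of 5 UMIs over 3 genes, to 15 with gates on 1000 UMIs, to 12 with no filter, and ranged from 5 to 10 when a replicate was left out. For S-phase cells with against without glial markers they went from 0 to 6 with gates on 1000 UMIs, and with the stricter glial gate none of the genes had enough counts. For G2/M cells with against without glial markers they went from 2 to 1 (doublets kept), 1 (G2/M gate), 17 (glial gate), 10 (gates on 1000 UMIs), 0 (DESeq2), 4 (no filter), 0 (no replicate block), and 0 to 2 without a replicate. The call with the G2/M gate was *ube2c*, higher with glial markers, and the calls in the other settings were lower. OPCs against quiescent radial glia had 1 call, 2 with gates on 1000 UMIs, 2 with no filter, and 1 to 2 without a replicate, and oligodendrocytes had 1, and 2 with gates on 1000 UMIs.

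Calls over all genes under DESeq2, in place of the main counts, were 634 in place of 1804 (G2/M against S), 1235 of 2775 (S-phase glia against quiescent), 503 of 1268 (S-phase, glial against other), 145 of 527 (G2/M, glial against other), 296 of 989 (few against many), 2507 of 3997 (OPCs), and 2223 of 3656 (oligodendrocytes). Without the replicate block they were 781, 1366, 636, 232, and 521 in the first 5 of these, and the block changed no call of the 32 genes between G2/M and S-phase cells. Leaving out a replicate gave 885 to 1458 for G2/M against S, 783 to 1216 for S-phase glial against other, 283 to 606 for G2/M glial against other, and 542 to 797 for few against many. The S gate of 0.6% gave 832 for S-phase glial against other. The G2/M gate gave 336 for G2/M glial against other and 655 for few against many, gates on 1000 UMIs gave 227 and 600, and the stricter glial gate 241 for the first.

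The share of UMIs in the 33 genes was 1.05% in G2/M cells with the G2/M gate and 1.12% with gates on 1000 UMIs. In S-phase cells with and without glial markers it was 0.0528% and 0.0600% with the G2/M gate, 0.0489% and 0.0489% with the S gate, and 0.0576% and 0.0863% with gates on 1000 UMIs, and in neuroblasts 0.0108% with the last. The share of cells with a UMI of the genes was 97.9% in G2/M cells with the G2/M gate, and 30.7% and 33.7% in S-phase cells with and without glial markers. For the latter 2 it was 31.7% and 33.1% with the S gate and 29.9% and 33.8% with gates on 1000 UMIs, and 24.5% without glial markers with the stricter glial gate. Without thinning it was 98.1% in G2/M cells, 45.4% and 51.8% in S-phase cells with and without glial markers, 15.5% in quiescent radial glia, 16.6% in neuroblasts, and 23.5% in OPCs.

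The number of the 33 genes with enough counts in S-phase glial cells against quiescent radial glia was 7, and it was 10 without replicate 3, 13 with the G2/M gate, 16 with gates on 1000 UMIs, and 31 with no filter. The comparisons of few against many S-phase transcripts, of OPCs and oligodendrocytes with quiescent radial glia, and of the change between lineages were chosen after seeing the data, as were the low classes of oligodendrocytes and macrophages.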
